A study of Bos taurus with 8 samples.

Results

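VEGFC, PDGFC, EFNA1, THBS2, TMEM204 and DAB2IP encode secreted or membrane-bound signals of vessel growth and proteins that act on VEGF receptor signaling. They were read in bovine endothelial cells (EC) from the choroid (BCE) and from the aorta (BAE). These 6 genes were selected on their response to leukemia inhibitory factor (LIF) in BCE cells, where the authors called each of them, and they are 6 of 25889 rows of the deposited count table. Their BCE values after LIF are therefore given as a description. The tests concern the BAE libraries, which that BCE contrast did not use, and the comparison of vehicle-treated cells. The 6 genes were chosen with earlier results of these data known, so the BAE tests are not shown to be independent of the choice.

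Vessel growth is set by secreted growth factors that act on receptors of EC, by ligands held on neighboring cells, and by matrix proteins that restrain sprouting. VEGF family ligands act on receptor tyrosine kinases of EC, and the strength of that signal depends on junction proteins and on scaffold proteins that bind the receptors inside the cell. LIF is a cytokine of the IL-6 family that signals through gp130 and the JAK-STAT3 pathway.

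After 3 h in assay medium, cells of each type were exposed for 6 h either to LIF (10 ng/ml) or to its vehicle, PBS containing 0.1% BSA, and each of the 4 groups held 2 libraries. The serum content of this medium was 10% with BCE and 1% with BAE cells. BCE cells had also been maintained on fibronectin with bFGF at 5 ng/ml and VEGF at 10 ng/ml, and BAE cells without these factors, so cell type, serum and maintenance factors cannot be told apart in any comparison of BCE with BAE cells. The methods call the 2 libraries of a group biological replicates without saying that they came from separate cultures, so p-values measure only the spread between these libraries. In edgeR's test that spread is estimated partly from all genes tested. A standard error of a log2 fold change is therefore not the spread of that gene's libraries alone. Library totals ranged from 18600598 to 35269335 counts. Levels are CPM, counts relative to the library total after TMM scaling. Relative to the library totals before that scaling, 3 counts correspond to between 0.0851 and 0.161 CPM. The 6 genes had between 148 and 21494 counts per library, far above that floor. Gene lengths were not used, so levels are compared within a gene and not between genes. The count table carries identifiers, and names were paired for 110 of them, which include none of the markers chosen for endothelial, smooth muscle, fibroblast, leukocyte or pigment epithelial cells. The labelled cell types were therefore not checked against markers here.

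In BAE cells, LIF raised all 6 genes. EFNA1 rose 3.73-fold, TMEM204 1.90-fold, THBS2 1.68-fold, VEGFC 1.61-fold, DAB2IP 1.49-fold and PDGFC 1.30-fold. All 6 passed edgeR's quasi-likelihood test upwards (Benjamini-Hochberg adjusted p under 0.05), against 13.6% of the 13034 genes tested. In each of the 6 genes both LIF libraries lay above both vehicle libraries, which held for 30.8% of the genes tested. The median log2 fold change of the 6 genes was 0.72, and that of all genes tested was -0.0039. The share of all genes called upwards fell to 8.42% without replicate 1 of LIF-treated BAE cells, and the 6 genes were called in that fit as well.

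Among the ligands, VEGFC (ENSBTAG00000014737), a secreted VEGF family member best known for lymphatic vessel growth, measured 249.2 and 239.5 CPM in vehicle-treated BAE cells and 373.4 and 395.0 CPM after LIF. The lower LIF library exceeded the higher vehicle library by more than the gap between libraries of either group. The log2 fold change of VEGFC was 0.69 ± 0.0442 (SE, n = 2 per group), with an adjusted p of 6.70e-09 by edgeR's test. PDGFC (ENSBTAG00000043959), a secreted platelet-derived growth factor that acts on mesenchymal cells around vessels, measured 110.2 and 109.6 CPM with vehicle and 139.1 and 139.4 CPM with LIF. Its libraries lay close together within each group, and its increase was the smallest of the 6 genes, at 0.37 ± 0.0438 on the log2 scale (edgeR adjusted p = 8.58e-06).

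EFNA1 (ENSBTAG00000020244), a membrane-anchored ligand of EphA receptors, measured 7.449 and 6.778 CPM in vehicle-treated BAE cells and 25.89 and 26.36 CPM after LIF. This was the largest relative change of the 6 genes, from counts of 256 and 148 to counts of 542 and 679. The log2 fold change of EFNA1 was 1.90 ± 0.0960 (SE), with an edgeR adjusted p of 3.15e-10, and EFNA1 stood at place 32 from the top among the 13034 genes tested. VEGFC stood at place 449 and PDGFC at place 1177 in the same order, so the 3 ligands were spread over the upper tail of the distribution.

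THBS2 (ENSBTAG00000018810) encodes thrombospondin 2, a matrix glycoprotein known as an inhibitor of angiogenesis. It measured 501.7 and 529.2 CPM in vehicle-treated BAE cells and 856.2 and 834.6 CPM after LIF. THBS2 moved in the same direction as the growth-promoting ligands, with a log2 fold change of 0.75 ± 0.0457 (SE, edgeR adjusted p = 3.36e-09). THBS2 and these ligands were all chosen on their response to LIF in BCE cells, where each of them rose. Their shared direction in BAE cells is therefore not read as a result on inhibitors and promoters of vessel growth.

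The other two genes act on VEGF receptor signaling from within the cell or at the junction. TMEM204 (ENSBTAG00000007246), also called CLP24, is a claudin-like junction protein that modulates this signaling. It measured 38.88 and 38.75 CPM with vehicle and 70.45 and 73.5 CPM with LIF in BAE cells, a log2 fold change of 0.92 ± 0.0602 (SE; edgeR adjusted p = 7.71e-09). DAB2IP (ENSBTAG00000008232), a Ras GTPase-activating scaffold protein known to dampen VEGF receptor signaling, measured 119.9 and 123.8 CPM with vehicle and 178 and 176.7 CPM with LIF. Its log2 fold change was 0.58 ± 0.0434 (SE; edgeR adjusted p = 4.79e-08). In the RefSeq annotation TMEM204 overlaps IFT140, and DAB2IP overlaps LOC112448832 and LOC132346630. Whether the counting used strand is not given in the sources used here, so reads of these overlapping genes could be shared. VEGFC, PDGFC, EFNA1 and THBS2 overlap no other gene of that annotation.

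**Figure D1:**
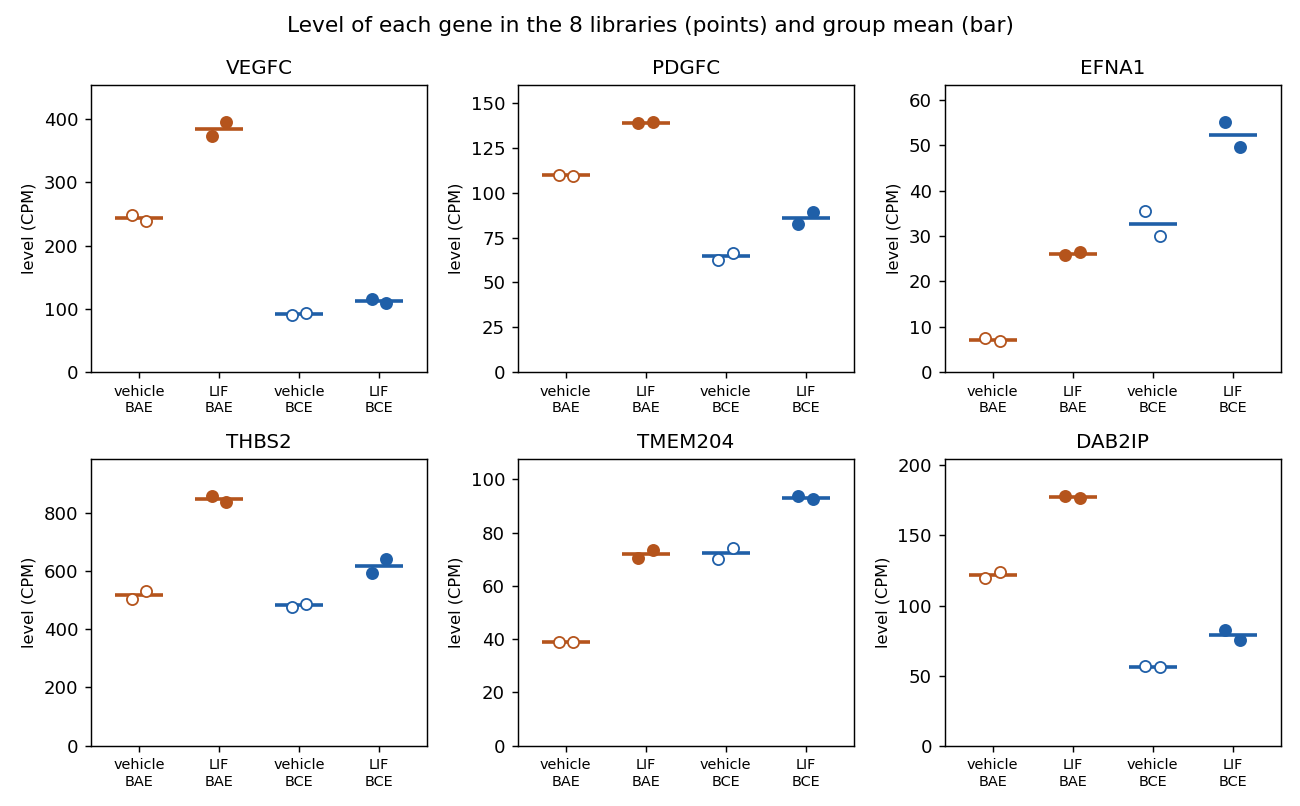
Levels of the 6 genes in the 8 libraries, in CPM on a separate linear axis for each gene, with 1 point per library and a bar at each group mean. In every gene both LIF libraries sit above both vehicle libraries of the same cell type.

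**Figure D2:**
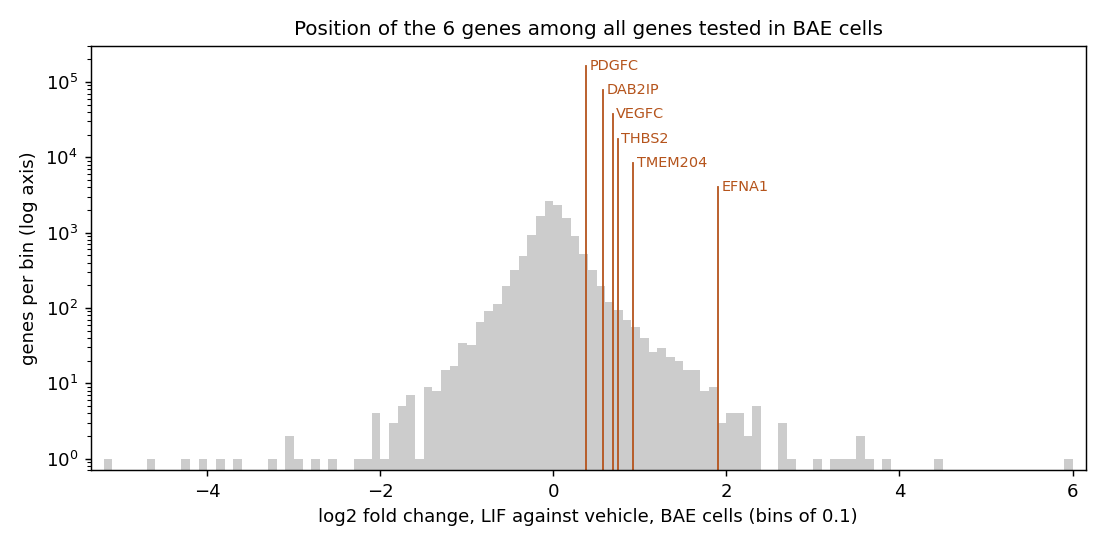
Log2 fold changes after LIF in BAE cells of the 13034 genes tested (grey bars, genes per bin of 0.1 on a log axis), with the 6 genes as labelled lines. PDGFC lies lowest of the 6, above 90.97% of the genes tested, and EFNA1 highest, above 99.75%.

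In BCE cells the 6 genes were higher after LIF as well, which is what they were chosen by. Both LIF libraries lay above both vehicle libraries in all 6, against 20.3% of the 13014 genes tested, a count that the choice fixed and that is not read further. EFNA1 again had the largest log2 fold change, 0.68 ± 0.0932 (SE), followed by DAB2IP at 0.49 ± 0.0648, PDGFC at 0.41 ± 0.0650, TMEM204 at 0.37 ± 0.0581, THBS2 at 0.36 ± 0.0505 and VEGFC at 0.29 ± 0.0559. In the order of edgeR's test in these cells VEGFC stood at place 120 of 120 genes called, the last inside the threshold. The first gene outside it, ENSBTAG00000005025, had a log2 fold change of 0.38.

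EFNA1 measured 35.53 and 29.95 CPM in vehicle-treated BCE cells and 55.04 and 49.54 CPM after LIF. The vehicle libraries of EFNA1 stood further apart, relative to their mean, than any other pair among the 6 genes, with an SD of 12.05% of the mean. DAB2IP went from 56.63 and 55.99 CPM to 82.24 and 75.32 CPM, and PDGFC from 62.72 and 66.74 CPM to 82.9 and 89.41 CPM. In PDGFC the libraries of both BCE groups were further apart than those of the BAE groups. THBS2 measured 476.5 and 486 CPM with vehicle and 592 and 640.1 CPM with LIF. TMEM204 measured 70.21 and 74.33 CPM with vehicle and 93.66 and 92.53 CPM with LIF. VEGFC measured 90.98 and 93.11 CPM with vehicle and 115.4 and 108.7 CPM with LIF, the smallest relative step of the 6 genes in these cells.

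For 5 of the 6 genes the difference of LIF effects (BCE minus BAE) was below 0, a smaller step in BCE cells. Among all 13646 genes tested, 54.38% had a difference above 0. DAB2IP and PDGFC lay above 36.05% and 59.73% of these genes. Of other genes raised by LIF, SOCS3 (-2.21), ID1 (-0.76), TNFRSF1A (-0.44), STAT3 (-0.33) and ITGAV (-0.06) were also below 0. HIF1A (0.09) was above 0. Because this difference contains the contrast that chose the 6 genes, it is given for them with its standard error and without a test. EFNA1 had the widest gap, with a log2 difference (BCE minus BAE) of -1.19 ± 0.141. TMEM204 followed at -0.53 ± 0.0793, VEGFC at -0.37 ± 0.0716 and THBS2 at -0.36 ± 0.0689. DAB2IP, at -0.06 ± 0.0755, and PDGFC, at 0.07 ± 0.0764, had differences smaller than their standard errors in the main fit. With a minimum of 10 counts in all libraries DAB2IP was at -0.077 ± 0.0746, slightly larger than its standard error. All differences moved when single libraries were left out. That of EFNA1 ran from -1.3348 to -1.0766 and that of TMEM204 from -0.581 to -0.4913. VEGFC ran from -0.4311 to -0.3244 and THBS2 from -0.4362 to -0.3198. The differences of DAB2IP and PDGFC, nearer to their standard errors, moved with single BCE libraries as follows. Without replicate 1 of LIF-treated BCE cells the difference was -0.1426 ± 0.0858 for DAB2IP and 0.1072 ± 0.0864 for PDGFC. Each was larger than its standard error. Without replicate 2 it was -0.0183 for DAB2IP and -0.0044 for PDGFC, a change of sign for PDGFC. Without replicate 2 of vehicle-treated BCE cells it was -0.0903 ± 0.0769 for DAB2IP and 0.0883 ± 0.0748 for PDGFC. Without replicate 1 of vehicle-treated BCE cells it was -0.0621 ± 0.0782 for DAB2IP and 0.0106 ± 0.0753 for PDGFC. The 2 effects share no library.

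**Figure D3:**
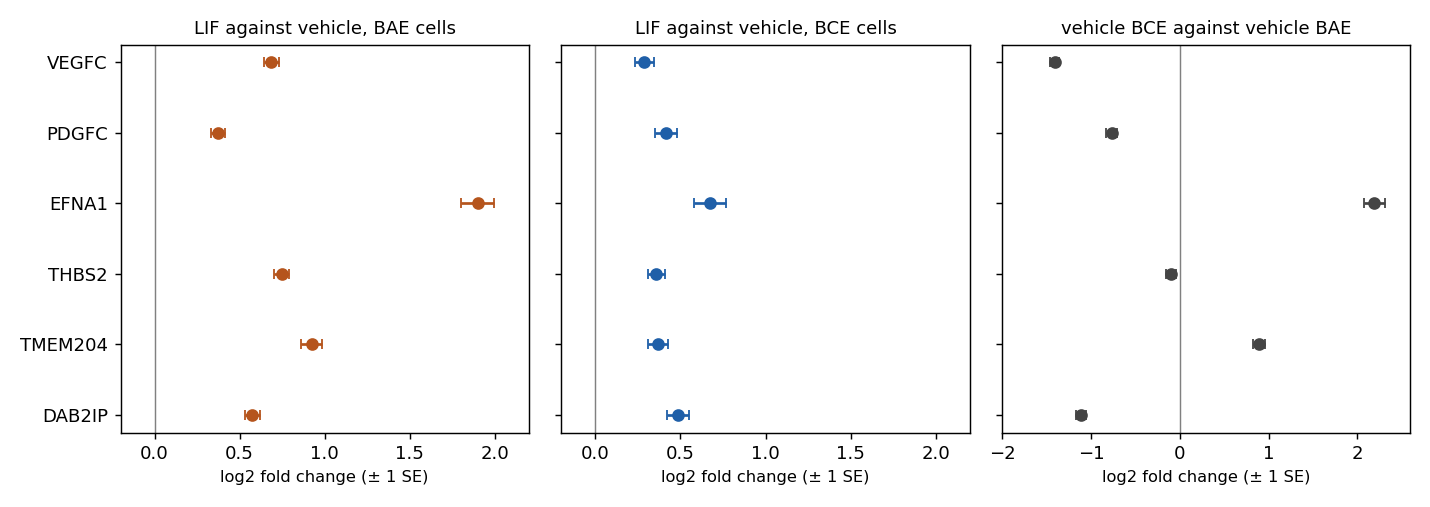
Log2 fold change after LIF in BAE cells and in BCE cells for each of the 6 genes, with bars of 1 standard error. The last panel shows vehicle-treated BCE against vehicle-treated BAE cells, on an axis range of its own, and is not a LIF effect. EFNA1 shows the widest separation between cell types (1.90 in BAE, 0.68 in BCE), and PDGFC (0.37 and 0.41) and DAB2IP (0.58 and 0.49) the narrowest.

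On the CPM scale the picture was different for EFNA1. Its level rose by 19.0 ± 0.583 CPM in BAE cells and by 19.6 ± 5.54 CPM in BCE cells, a similar increment from unlike starting levels. Each increment is a difference of group means (n = 2 per group). The value after ± is the square root of the summed variances of single libraries in the 2 groups. VEGFC rose by 139.9 ± 16.7 CPM in BAE cells and by 20.0 ± 4.91 CPM in BCE cells. For VEGFC the increments stood apart on both scales. PDGFC, which had similar log2 changes, rose by 29.3 ± 0.425 and 21.4 ± 5.41 CPM. DAB2IP rose by 55.6 ± 2.91 CPM in BAE cells and by 22.5 ± 4.91 CPM in BCE cells, although its log2 changes were close, since its vehicle level was lower in BCE cells.

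Vehicle-treated cells of the 2 types differed in 5 of the 6 genes, and in both directions. VEGFC, DAB2IP and PDGFC were lower in BCE than in BAE cells, and EFNA1 and TMEM204 were higher. Of the 13426 genes tested, 53.8% passed edgeR's test in either direction, so a call for 5 of 6 genes is read against a large background. The groups did not overlap in any of the 6 genes, as in 77.3% of genes tested. This comparison shares its 2 vehicle-treated BCE libraries with the contrast that chose the genes, and its vehicle-treated BAE libraries with the LIF effect in BAE cells.

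EFNA1 averaged 7.114 ± 0.475 CPM (SD, n = 2) in vehicle-treated BAE cells and 32.74 ± 3.95 CPM in vehicle-treated BCE cells, a log2 difference of 2.19 ± 0.120 (SE; edgeR adjusted p = 1.88e-08). TMEM204 averaged 38.81 ± 0.0923 and 72.27 ± 2.91 CPM, a log2 difference of 0.89 ± 0.0705 (edgeR adjusted p = 5.50e-07). These were the 2 genes that stood higher in BCE cells. VEGFC averaged 244.3 ± 6.83 CPM in BAE and 92.05 ± 1.51 CPM in BCE cells, a log2 difference of -1.41 ± 0.0549 (edgeR adjusted p = 8.50e-10). DAB2IP averaged 121.8 ± 2.75 and 56.31 ± 0.453 CPM, a log2 difference of -1.12 ± 0.0596 (edgeR adjusted p = 1.53e-08). PDGFC showed the smallest passing difference, from 109.9 ± 0.393 to 64.73 ± 2.84 CPM, or -0.77 ± 0.0606 on the log2 scale (edgeR adjusted p = 5.45e-07). THBS2, at 515.5 ± 19.5 and 481.2 ± 6.73 CPM, did not pass, with a log2 difference of -0.10 (95% interval -0.22 to 0.02, edgeR adjusted p = 0.1345), and over the alternatives its adjusted p ranged from 0.09575 to 0.4986.

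The 4 group means of each gene fell into 3 orders. VEGFC, PDGFC and DAB2IP shared the order vehicle-treated BCE, LIF-treated BCE, vehicle-treated BAE, LIF-treated BAE from lowest to highest, so that even after LIF their BCE level stayed at 45.86%, 78.38% and 64.68% of the level in vehicle-treated BAE cells. EFNA1 and TMEM204 shared the reverse order of cell types, with both BAE groups below both BCE groups by their means. After LIF, BAE cells reached 79.81% of the vehicle-treated BCE level for EFNA1 and 99.59% for TMEM204, and for TMEM204 these neighboring groups overlapped (70.45 and 73.5 against 70.21 and 74.33 CPM). THBS2 had an order of its own. Vehicle-treated BCE cells were lowest, vehicle-treated BAE cells next, then LIF-treated BCE cells, and LIF-treated BAE cells highest, and the lowest neighbors did not pass the test above.

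As a ratio of levels, LIF brought the cell types closer together for EFNA1 and TMEM204. The BCE level of EFNA1 was 4.602 times the BAE level with vehicle and 2.002 times with LIF. For TMEM204 it was 1.862 and 1.293 times. In CPM, EFNA1 rose by similar amounts in both cell types, as given above, so that gap did not narrow. For VEGFC the cell types moved further apart, from a BAE level 2.654 times the BCE level to one 3.429 times. THBS2 went from 1.071 to 1.372 times in the same direction. PDGFC (1.698 and 1.616 times) and DAB2IP (2.163 and 2.252 times) kept nearly the same ratio. The span from the lowest to the highest group mean was widest for EFNA1, at 7.351-fold, and narrowest for THBS2, at 1.757-fold. These ratios combine the contrasts above and carry no test.

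**Figure D4:**
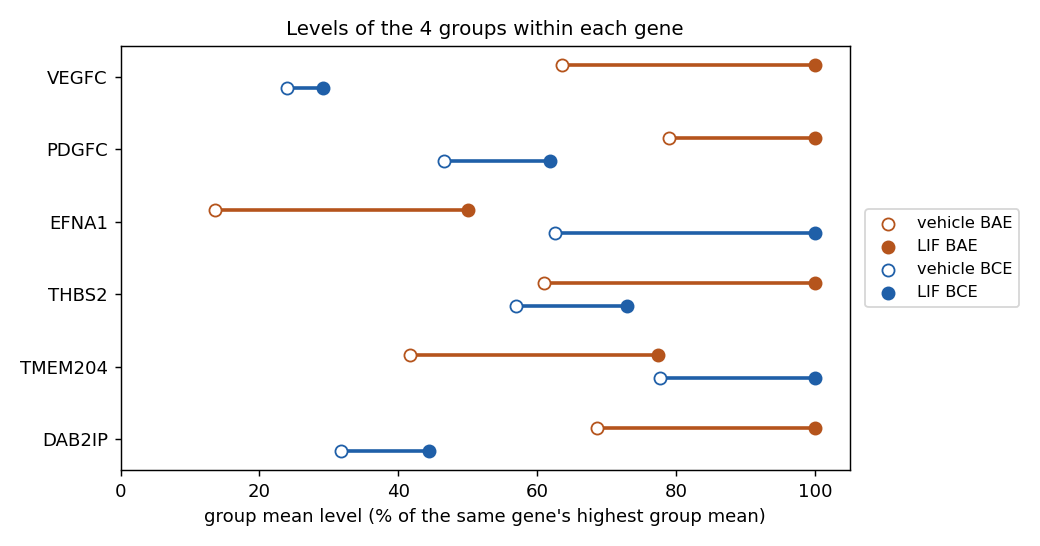
Group means of the 6 genes in the 4 groups, as a percentage of the same gene's highest group mean, on a linear axis. For EFNA1 and TMEM204 both BCE groups lie above both BAE groups, narrowly for TMEM204. For VEGFC, PDGFC and DAB2IP both BCE groups lie below both BAE groups. For THBS2 the vehicle groups lie close together and below both LIF groups.

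Replicates of the 6 genes were close. Over the 24 combinations of gene and group, the SD of the 2 libraries ran from 0.116% to 12.05% of the mean, and it exceeded the SD that counting alone would give in 15 of them. In bulk libraries such as these, fewer cells that transcribe a gene and less RNA per cell cannot be told apart.

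A further 8 genes of the angiogenesis, VEGF and LIF signaling lists were paired with a name, and all 8 had also been called by the authors in BCE cells. In BAE cells 6 of the 8 rose and 2 fell by edgeR's test, against 13.6% of all genes tested called upwards and 8.55% called downwards. SOCS3, the feedback inhibitor of JAK-STAT signaling and a standard target of LIF, rose most, with a log2 fold change of 3.45 ± 0.0875 (SE; adjusted p = 1.01e-13), and STAT3, the transcription factor of the pathway, rose by 0.99 (adjusted p = 3.88e-11). ID1, an inhibitor of bHLH factors active in EC, rose by 1.45, the receptor TNFRSF1A by 0.83, the hypoxia factor HIF1A by 0.62 and the integrin subunit ITGAV by 0.47. RGCC and PLK2, which the study's gene ontology lists place under negative regulation of angiogenesis, fell by 0.60 each on the log2 scale (adjusted p = 3.29e-06 and 0.000188). RGCC measured 59.25 and 56.61 CPM with vehicle and 37.97 and 36.65 CPM with LIF in BAE cells. Of the genes known or listed as inhibitors, THBS2 and DAB2IP rose and RGCC and PLK2 fell in BAE cells. The study's gene ontology lists place DAB2IP under angiogenesis. Each of these genes had the same direction in BCE cells, where the authors had called it, so the split is not read as a result on inhibitors. In BCE cells all 8 had the same sign as in BAE cells, with log2 changes from -0.75 for RGCC to 1.21 for SOCS3, as a description. The receptors of VEGF, PDGF, ephrin-A and thrombospondin ligands and the other ligands of these families were not analysed here.

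For each of the 6 genes, the named genes with the most similar profile over the 8 libraries were taken by Euclidean distance of centred log2 CPM. The names cover 110 genes, all called in BCE cells. VEGFC was nearest to ITGAV (distance 0.37), and 5 genes of 13646 were nearer still. EFNA1 was nearest to ID1 (0.5129) with 0 genes nearer, and TMEM204 to TBXAS1 (0.2013), also with 0 nearer. THBS2 was nearest to ENTPD7 (0.2239) and DAB2IP to SNX18 (0.3165), each with 1 gene nearer. PDGFC had a less particular profile, with SYNPO as its nearest named gene (0.3989) and 35 genes nearer. ID1 followed the EFNA1 order of groups, from 26.66 and 24.09 CPM in vehicle-treated BAE cells and 66.1 and 69.81 CPM after LIF to 92.66 and 85.9 CPM and 146 and 135.7 CPM in the matching BCE groups.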

How the data were processed

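Paired-end RNA libraries of bovine EC were sequenced, 8 in 4 groups of 2, with totals from 18600598 to 35269335 counts. Per the methods and the submitters' processing notes, the authors aligned reads to UMD 3.1 with TopHat2 (version 2.0.12) and Bowtie2 (version 2.2.3) and counted them with HTSeq (version 0.6.1). The deposited counts are whole reads per gene without normalization. How reads shared by several genes were treated is not given in the sources used here. The authors also deposited a table of genes called in BCE cells with DESeq (version 1.18.0), which holds the mean signal of each group as normalized counts, the log2 ratio of these means and the p-value before and after adjustment. From it only gene names were taken. The deposited table named for BAE cells is identical to it and was not used. Of 160 symbols listed for pathways and markers, 5 were paired with an identifier in these names, and 3 angiogenesis genes were added from the study's ontology lists.

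Tests were run with edgeR (version 4.0.16) under R (version 4.3.3). Genes passed filterByExpr (minimum count 10, total 15), libraries were scaled by TMM, and each comparison was fitted on its own 4 libraries by the quasi-likelihood test, with Benjamini-Hochberg adjustment over all genes tested and a threshold of 0.05. The difference of LIF effects was an interaction over 8 libraries. Scripts were tested on simulated data. Profiles were log2 CPM values (prior count 2), and the 3 nearest named genes were computed for each of the 6 genes. Named are the 6 genes, the 8 list genes with a name and those nearest genes. The 6 genes and all lists were chosen with earlier results of these data known. Alternatives were DESeq2's size factors, the DESeq2 test (version 1.42.0), no filter, a minimum of 10 counts in all libraries compared, a replicate block, a joint fit of the 8 libraries, and leaving out each library. Intervals and the floor of 3 counts cover counting error or the spread of these libraries only. Gene neighbours came from RefSeq (ARS-UCD2.0), and no coordinates were used.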

Additional observations from a re-analysis of the deposited data

How the results depend on the processing

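The 6 genes passed the test upwards in BAE cells under all 10 alternatives (the highest adjusted p, from edgeR or DESeq2, was 0.000572 for PDGFC), with log2 fold changes from 0.64 to 0.71 for VEGFC, 0.34 to 0.37 for PDGFC, 1.84 to 1.97 for EFNA1, 0.70 to 0.78 for THBS2, 0.89 to 0.94 for TMEM204 and 0.54 to 0.60 for DAB2IP. At baseline 5 of the 6 passed under all 10. The number of genes called in BAE cells was 2889, and 1920 with the DESeq2 test. It ranged from 1807 to 2905 when single libraries were left out, lowest without replicate 1 of LIF-treated BAE cells. In BCE cells 120 genes were called, 437 without a filter and 217 with all 8 libraries in the fit. Leaving out single libraries gave from 55 (without replicate 2 of LIF-treated BCE cells) to 1423 (without replicate 1 of vehicle-treated BCE cells), with 56 without replicate 1 of LIF-treated and 477 without replicate 2 of vehicle-treated BCE cells. In these fits an arm holds 1 library, which is assumed to vary like the other groups. The number of the 6 genes with a difference of LIF effects (BCE minus BAE) above 0 was 1, and 0 to 1 with libraries left out. In the main fit 54.38% of all genes tested had a difference above 0. The 1 gene of the 6 is PDGFC, whose difference ranged from -0.0044 (without replicate 2 of LIF-treated BCE cells) to 0.1072 (without replicate 1). That of DAB2IP ranged from -0.1426 (without replicate 1) to -0.0183 (without replicate 2). The causes of these shifts were not tested.

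With the replicate block, 2887 genes were called in BAE cells, 226 in BCE cells and 7049 at baseline, against 2889, 120 and 7223. The block used the replicate numbers of the sample titles. The deposited columns number the same libraries differently, and no label says what a shared number stands for, so what the block groups is uncertain. Deviations of libraries with the same title number correlated at -0.021, 0.1 and -0.053 in these comparisons, with 2 pairs each. With 2 libraries per group, differences near the size of that for THBS2 at baseline were not resolved.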
